A study of Mus musculus with 8 samples.

Results

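A stretch of mouse chromosome 10 from 79000001 to 81000000 (build mm9) held more H3K9me3 peaks of Kdm4b knockout cells than any other autosomal window of 2 Mb taken in steps of 1 Mb, and was chosen for that reason. Moved 100 kb higher, the window would hold 797 such peaks in place of 794. Its members were all peaks of 3 lists whose midpoint fell between these positions. They were 215 of 32017 peaks of KDM4B in wild-type (WT) cells, 794 of 55306 peaks of H3K9me3 in knockout (KO) cells and 4 of 943 peaks of H3K9me3 in WT cells, or 1013 of 88266 peaks in all. The number of KO H3K9me3 peaks in the block is therefore a description, and no test was made of it.

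KDM4B is a demethylase acting on lysine 9 of histone H3. H3K9me3, trimethylation at that lysine, is the mark of constitutive heterochromatin and is read by HP1 proteins. It is usually sparse in gene-rich chromatin and abundant at repeats and over clusters of zinc finger genes. In mesenchymal stem cells, marrow stromal cells able to give rise to osteoblasts, chondrocytes and adipocytes, KDM4B is known as a factor of the bone-forming programme.

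The chromatin came from primary bone marrow mesenchymal stem cells of Prx1Cre; Kdm4bw/w mice (WT) and Prx1Cre; Kdm4bf/f mice (KO), per the labels. Both genotypes carried the Cre transgene, whose Prx1 promoter is active in limb mesenchyme, and cells of both were kept in osteogenic induction for 4 hours. Each antibody had 1 library per genotype, the sources used here do not give the age and number of animals, and the labels give the genotype of the KDM4B libraries by their titles. Without replicates no difference between genotypes or regions could be tested, and the intervals below cover counting error only. The files give positions and no expression, so the cell type could not be checked against its markers. A peak list does not say in what share of cells a site was occupied.

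The other deposited lists had no peak in the block. KDM4B in KO cells (35 peaks in the genome), H3 in WT cells (38) and H3 in KO cells (28) each gave 0 peaks between the block's edges. Depth, control and threshold are unknown for the 3 lists described here. Their part in every comparison of one list with another was not tested.

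The block was crowded with both KDM4B and KO H3K9me3 peaks. KDM4B had 108 peaks per Mb (95% exact Poisson interval 93.6 to 123). The rest of chromosome 10 had 13.3 per Mb and the other autosomes 13.0. H3K9me3 of KO cells had 397 peaks per Mb, against 15.7 and 23.0. Relative to the other autosomes the density of KDM4B peaks was 8.25 times as high (7.18 to 9.43). That of KO H3K9me3, the value by which the block was chosen, was 17.3 times as high. The block makes up 1.59% of the span of chromosome 10 and held 11.6% of its KDM4B peaks and 29.0% of its KO H3K9me3 peaks. It also held 14.8% of its WT H3K9me3 peaks, 4 of 27. Those were 2 per Mb (0.545 to 5.12), against 0.186 on the rest of chromosome 10 and 0.331 on the other autosomes. For WT H3K9me3 the block ranked 57 among 2336 windows of 2 Mb, whose median was 0.

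KDM4B peaks played no part in the choice of the block, which was also the densest for that list. With 215 KDM4B peaks it ranked 1 among 2336 autosomal windows of 2 Mb, taken in steps of 1 Mb, whose median was 19.5. The next window that did not overlap it, on chromosome 17 from 34000001 to 36000000, had 163. There were 3.69 KO H3K9me3 peaks per KDM4B peak in the block, 1.18 on the rest of chromosome 10 and 1.77 on the other autosomes. Among 1168 windows with at least 20 KDM4B peaks this ratio ranked 98, and the highest was 13.7.

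The start of the block coincided with the start of the dense stretch, and its end did not. In the 50 kb before the block there were 2 KO H3K9me3 peaks, and in its first 50 kb there were 16. The peaks nearest to the lower edge lay at 78996180 to 78996637, just outside, and at 79002788 to 79003595, just inside. On the upper side the last 50 kb held 18 KO peaks, the next 150 kb held 36 and the 850 kb after those held 3. The 7 KDM4B peaks in the 1 Mb after the block all lay in those 150 kb. In the 1 Mb before the block there were 13 KO H3K9me3 and 2 KDM4B peaks. The peaks nearest to the upper edge, at 80998239 to 80998438 inside and 81004669 to 81004868 outside, were both 199 bp wide, the lower limit of widths in that list. KDM4B entered later than the mark: its first peak in the block, from 79131940 to 79132814, lay 132 kb from the edge, and the peak before it was 440 kb outside.

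**Figure D1:**
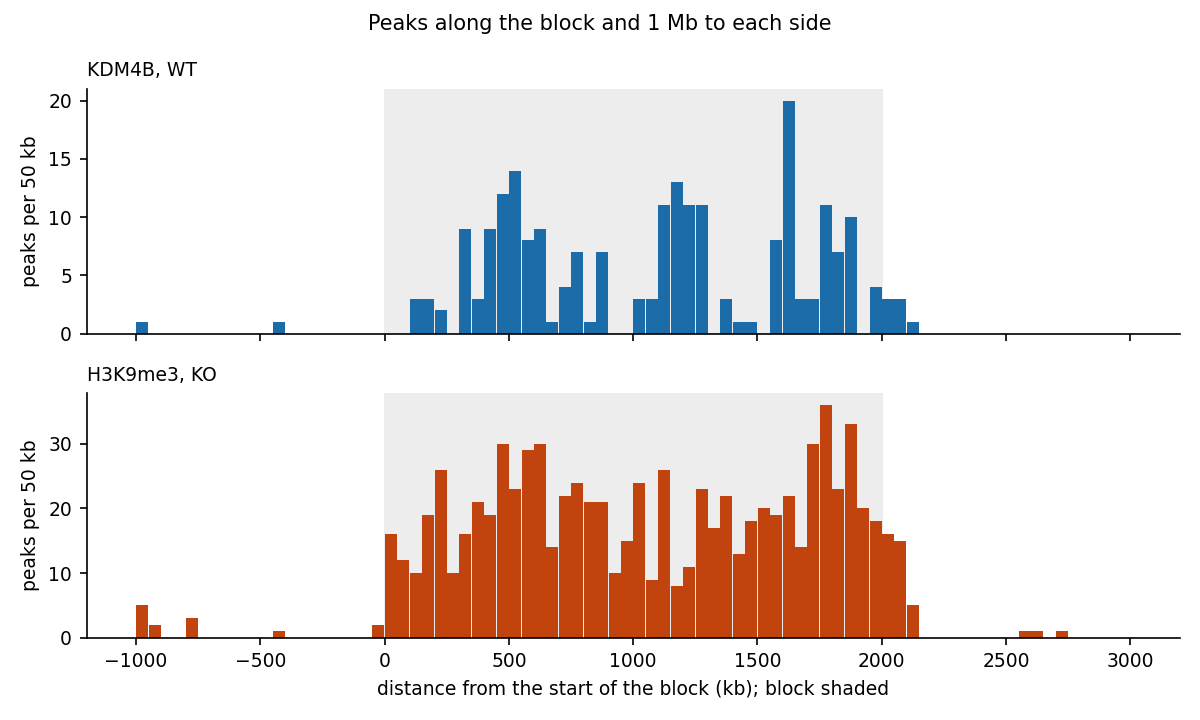
Number of peaks per 50 kb (bars) of KDM4B in WT cells and H3K9me3 in KO cells against the distance from the start of the block in kb, with the block shaded. KO H3K9me3 has 8 to 36 peaks in every window of the block, KDM4B has 0 to 20, and the 150 kb after the upper edge still hold 36 KO H3K9me3 and 7 KDM4B peaks.

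KO H3K9me3 was present along the whole block, whereas KDM4B came in patches. Over the 40 windows of 50 kb, KO H3K9me3 ranged from 8 to 36 peaks with a median of 20, and none of the windows was empty. KDM4B ranged from 0 to 20 peaks with a median of 3, and 8 windows had none. The block was chosen for its KO peaks and held 794 of them against 215 of KDM4B. Fewer empty windows are thus built in for KO H3K9me3. The variance over the mean of the window counts was 2.40 for KO H3K9me3 and 4.61 for KDM4B. The 8 windows without a KDM4B peak midpoint still held 120 KO H3K9me3 peaks, 10 to 20 each with a median of 15.5, and the other windows held 8 to 36 with a median of 21.5. Across the 40 windows the 2 counts had a Pearson coefficient of 0.383 and a Spearman coefficient of 0.446, given as a description because the windows share their libraries and neighbours.

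The windows with most KO H3K9me3 peaks mostly had many KDM4B peaks. So did the window with the fewest, but the next lowest windows had few or none. The most KO H3K9me3 peaks, 36, lay from 80750001 to 80800000, with 11 KDM4B peaks, of which 8 overlapped the mark. Next came 80850001 to 80900000 with 33 KO and 10 KDM4B peaks, followed by 3 windows with 30 KO peaks each. Of these, the windows from 79450001 and 79600001 had 12 and 9 KDM4B peaks, and that from 80700001 had 3. The fewest KO H3K9me3 peaks, 8, lay from 80150001 to 80200000, a window with 13 KDM4B peaks of which 3 overlapped the mark. The window from 80050001 to 80100000 followed, with 9 KO and 3 KDM4B peaks. Those from 79100001, 79250001 and 79900001 had 10 KO peaks each and 3, 0 and 0 KDM4B peaks. The window from 80600001 to 80650000 had the most KDM4B peaks, 20, with 22 KO H3K9me3 peaks, and 12 of the 20 overlapped. In the window from 79750001 to 79800000 none of the 7 KDM4B peaks overlapped any of the KO H3K9me3 peaks, of which the window held 24. The KDM4B peak ending at 79779310 came close, with a KO peak beginning at 79779325.

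**Figure D2:**
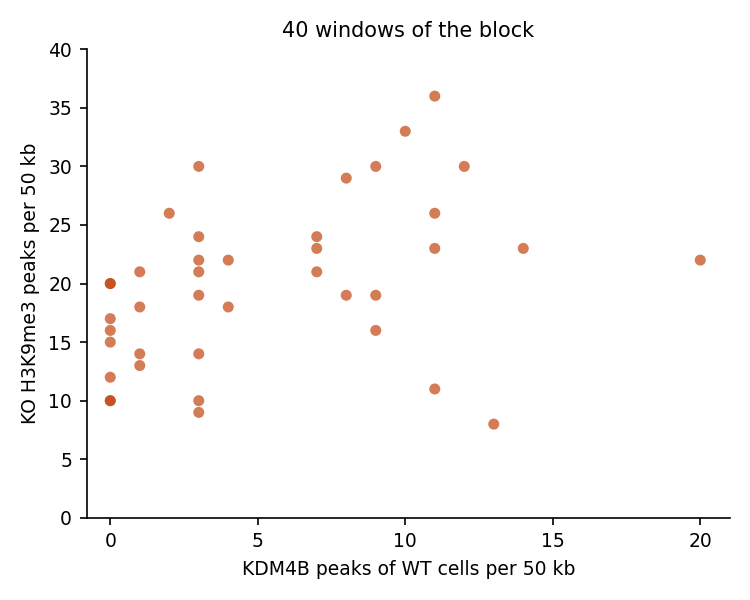
Each point is 1 of the 40 windows of 50 kb of the block, with its KDM4B peaks of WT cells on the horizontal axis and its KO H3K9me3 peaks on the vertical axis. The windows without KDM4B hold 10 to 20 KO peaks. The window with the fewest KO peaks, 8, holds 13 KDM4B peaks, and that with the next fewest, 9, holds 3.

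Read in order of midpoint, the 1013 peaks formed 327 runs of a single list. KO H3K9me3 peaks were 78.4% of the peaks, and 631 of the 1012 neighbouring pairs were 2 KO peaks. A KDM4B peak was followed by a KO peak in 161 pairs and by another KDM4B peak in 54. KDM4B peaks mostly stood alone among KO peaks: 124 of the 161 KDM4B runs were 1 peak long, and the longest had 6. KO H3K9me3 formed 163 runs, of which 57 were 1 peak long and 23 had at least 10 peaks. Those 23 runs held 418 of the 794 KO peaks.

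A run of the mark ends at the next KDM4B midpoint, so the longest runs fall by definition where KDM4B peaks are far apart. From 79897887 to 80020586, 41 KO H3K9me3 peaks followed each other over 123 kb, covered 13.3 kb and overlapped no KDM4B peak. The next longest was 34 peaks from 79002788 to 79132260, over 129 kb; the lower edge limits this run, and 1 of its peaks overlapped KDM4B. The third, with 28 peaks from 79179832 to 79229789, was packed into 50 kb. The 3 longest stretches without KDM4B between peaks of the block, of 126, 95.7 and 69.3 kb, held 41, 26 and 26 KO peaks. The 3 longest stretches without KO H3K9me3, of 21.9, 21.3 and 18.7 kb, were touched by 0, 3 and 0 KDM4B peaks. The last of those 3 KDM4B peaks reached past the end of its stretch and overlapped KO H3K9me3.

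The converse, a run of KDM4B peaks with no KO peak midpoint among them, was short, which the smaller number of KDM4B peaks favours. The longest, chosen after its values were seen, had 6 KDM4B peaks from 80166474 to 80173910, and none of them overlapped KO H3K9me3. These 7.44 kb contained 5.07 kb under KDM4B peaks.

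**Figure D3:**
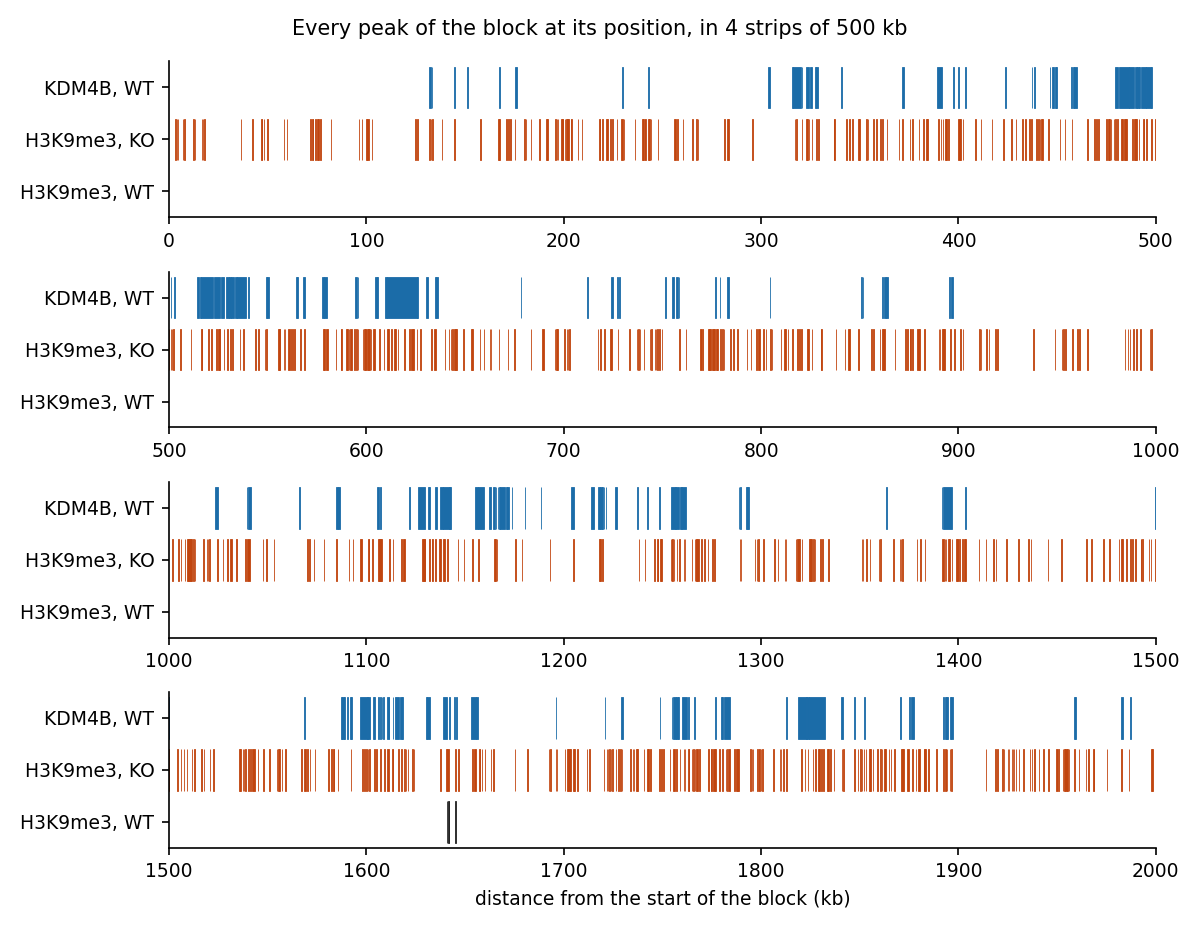
Position of every peak in the block in 4 strips of 500 kb, with the distance from the block's start in kb on the horizontal axis and 1 row per list (narrow peaks have a minimum line width). KO H3K9me3 runs through all strips, KDM4B leaves the first 132 kb and a stretch of 126 kb around the middle empty, and the 4 WT H3K9me3 peaks lie together in the last strip.

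KO H3K9me3 peaks in the block were narrow and closely spaced. Their median width was 287 bp, with quartiles of 219 and 401 bp, against a median of 255 bp on the other autosomes, and 8 of the 794 reached 1 kb. The gap from one KO peak to the next had a median of 1112 bp, with quartiles of 405 and 2744 bp. On the other autosomes that median was 5482 bp and on the rest of chromosome 10 it was 9668 bp. The largest gap in the block was 21.9 kb, and 47.0% of gaps were at most 1 kb. The block was chosen for its number of KO peaks, so short gaps and many linked groups are built in. The spacing is a description.

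Linking KO peaks across gaps of up to 1 kb gave 421 groups, of which 235 were single peaks and 46 had at least 4. Of the KO peaks in groups of at least 4, 23.7% overlapped KDM4B (55 of 232, 95% exact binomial interval 18.4 to 29.7%). The share was 17.0% among single peaks (40 of 235, 12.4 to 22.4%) and 25.7% in groups of 2 or 3 (84 of 327, 21 to 30.8%). These intervals overlap, but they count linked peaks as independent and do not test a difference. By group, no KO peak overlapped KDM4B in 195 of the 235 single peaks and in 93 of the 140 groups of 2 or 3. The same held for 29 of the 46 large groups. A group with more peaks has more room for an overlap.

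In none of the 5 groups with most KO peaks did a KO peak overlap KDM4B. The largest, from 79773106 to 79781239, had 12 KO H3K9me3 peaks that covered 4.11 of its 8.13 kb. It also contained 2 KDM4B peaks, of 336 and 342 bp, which overlapped no KO peak but lay close to the next. They ended at 79777039 and 79779310, and the next KO peaks began at 79777099 and 79779325. From 79198577 to 79204131 there were 9 KO peaks covering 3.04 kb, and the nearest KDM4B peak was 22148 bp away. The groups from 79598119 to 79602563 and from 80007906 to 80013150 had 8 KO peaks each, at 1690 and 10329 bp from KDM4B. The fifth, from 79071653 to 79076899, had 7 KO peaks and lay 55041 bp from KDM4B.

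Many KDM4B sites of the block carried the mark in KO cells. Of the 215 KDM4B peaks, 122 overlapped a KO H3K9me3 peak, or 56.7% (49.8 to 63.5%), against a background of 22.8% over the whole KDM4B list. The share was 19.5% (17.6 to 21.5%) on the rest of chromosome 10 and 23.0% (22.5 to 23.5%) on the other autosomes. A block with so many KO peaks gives more overlaps by its density alone, and KO peaks covered 13.6% of it against 0.707% of the other autosomes, so the share is a description. The 93 KDM4B peaks without overlap had the mark close by: their median distance to it was 778 bp and the largest was 7832 bp. On the other autosomes the median for such peaks was 8679 bp. In all, 210 of the 215 KDM4B peaks lay on or within 5 kb of KO H3K9me3, or 97.7%, against 53.2% on the other autosomes. Short distances are likewise built in by the density of KO peaks. Of the gaps between KO peaks, 88.7% in the block and 48.3% on the other autosomes were at most 5 kb.

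Wide KDM4B peaks carried the mark more often than narrow ones, in the block as elsewhere. The overlap share was 39.1% (29.1 to 49.9%) for the 92 peaks under 500 bp and 56.5% (43.3 to 69.0%) for the 62 from 500 bp to under 1 kb. It was 76.3% (59.8 to 88.6%) for the 38 from 1 to under 2 kb and 95.7% (78.1 to 99.9%) for the 23 of 2 kb or more, where 22 overlapped. A wider peak has more room for an overlap, and the share of KDM4B-covered bases that lay under the mark differed little between these classes, at 21.1, 25.7, 24.5 and 26.9%. On the other autosomes it was 7.90, 10.6, 11.6 and 11.2%. KDM4B peaks of 1 kb or more were 28.4% of those in the block and 20.0% of those on the other autosomes.

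**Figure D4:**
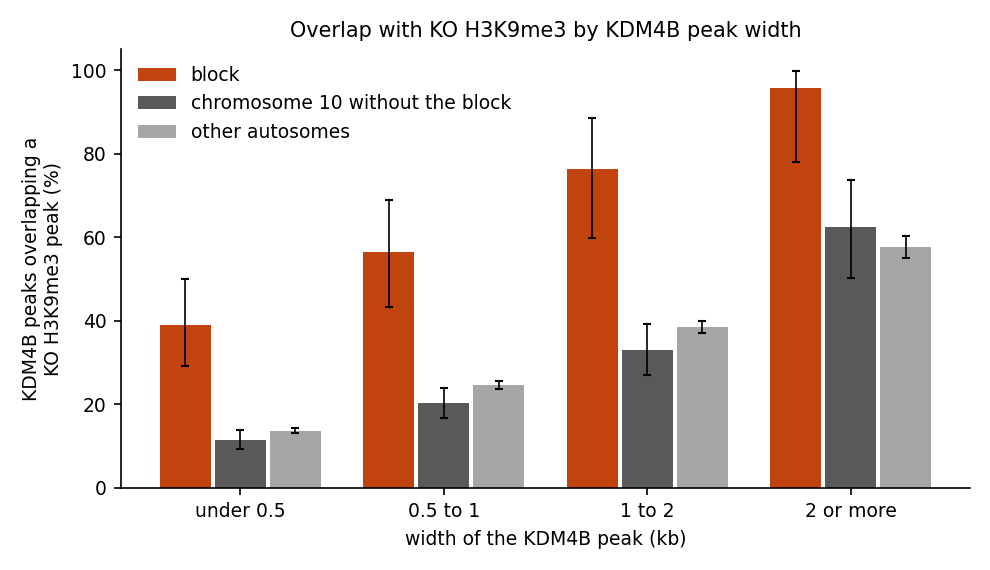
Share of KDM4B peaks of WT cells that overlap a KO H3K9me3 peak (bars, %) by KDM4B peak width in kb, in the block, on the rest of chromosome 10 and on the other autosomes, with 95% exact binomial intervals as error bars. The share in the block goes from 39.1% for peaks under 0.5 kb to 95.7% for peaks of 2 kb or more and is above both other regions in each width class.

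Each of the 5 widest KDM4B domains of the block held several separate KO H3K9me3 peaks. The widest, from 79610385 to 79625388, spanned 15.0 kb and held 10 KO peaks of 199 to 720 bp, which together lay under 28.5% of it. They were spread from 3.01 to 90.1% of the way along the domain. The next, from 80824410 to 80832218, spanned 7.81 kb and held 6 KO peaks over 27.8% of its length, the widest of 841 bp. The domain from 79516106 to 79522491 had 4 KO peaks over 23.8% of its 6.38 kb, centred at 3.27, 9.55, 63.7 and 83.6% of the way along it. The domains from 79481316 to 79486206 and from 80392151 to 80396650 held 5 and 6 KO peaks over 36.7 and 35.5% of their lengths. None of the 5 domains overlapped WT H3K9me3.

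The reverse view gave a lower share. Of the 794 KO H3K9me3 peaks, 179 overlapped a KDM4B peak, or 22.5% (19.7 to 25.6%), against a background of 15.7% over the whole KO list. The share was 21% (19.2 to 22.9%) on the rest of chromosome 10, whose interval overlaps that of the block. KDM4B peaks took up 10.8% of the bases of the block and 0.984% of those on the other autosomes. More overlaps are thus built in for the block, and the share is a description. A further 71 KO peaks lay within 1 kb of KDM4B, 196 at 1 to 5 kb, 226 at 5 to 20 kb, and 122, or 15.4%, farther than 20 kb. On the other autosomes 48.1% lay farther than 20 kb. Of all bases, 18.7% in the block and 79.9% on the other autosomes lay that far from KDM4B. KO peaks that overlapped KDM4B had a median width of 320 bp and the rest 275 bp, and on the other autosomes these medians were 304 and 249 bp.

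Of the 5 widest KO H3K9me3 peaks of the block, 3 overlapped no KDM4B peak. The widest, from 79843811 to 79845221, spanned 1.41 kb and lay 5299 bp from the nearest KDM4B peak. The fourth, from 80879446 to 80880702, with 1.26 kb, and the fifth, from 80542138 to 80543365, with 1.23 kb, lay at 1999 and 24956 bp. The other two overlapped 2 KDM4B peaks each: that from 80640721 to 80642071 shared 7.48% of its 1.35 kb with them, and that from 80039568 to 80040866 shared 56.4% of its 1.30 kb.

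Counted in bases, the mark was densest inside KDM4B peaks and then nearly level with distance. KO H3K9me3 covered 25.2% of the bases inside KDM4B peaks, 14.5% of those up to 1 kb away and 11.9% at 1 to 5 kb. It covered 12.4% at 5 to 20 kb and 10.5% of the 375 kb that lay farther than 20 kb. On the other autosomes coverage went from 10.4% inside KDM4B peaks to 3.19, 1.36, 1.19 and 0.415% in the same classes. The bases inside KDM4B peaks were thus 2.07 times as often covered as all bases outside in the block, 25.2 times on the rest of chromosome 10 and 17.1 times on the other autosomes. Set against the other autosomes, coverage in the block was 2.42 times as high inside KDM4B peaks and 25.4 times as high farther than 20 kb from them. These ratios carry no test. The block was chosen by its KO peaks, and 89.2% of it lay outside KDM4B peaks, so the choice itself raises coverage there. A lower ratio of inside to outside is thus partly built in.

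**Figure D5:**
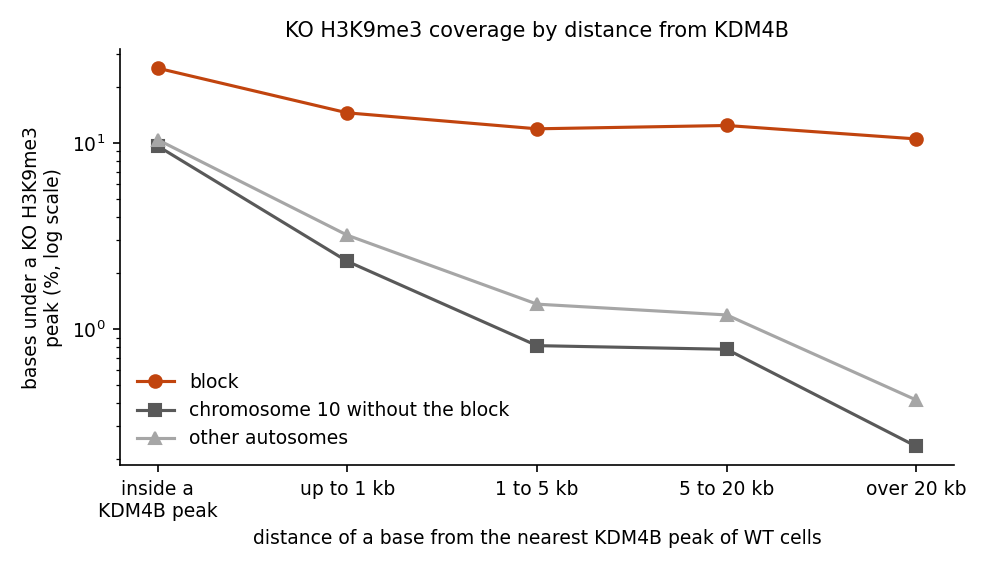
Percentage of bases under a KO H3K9me3 peak (log scale) by distance from the nearest KDM4B peak of WT cells, in the block, on the rest of chromosome 10 and on the other autosomes. The block goes from 25.2% inside KDM4B peaks to 10.5% beyond 20 kb, and the other autosomes from 10.4 to 0.415%.

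Coverage by distance class was not computed for other single windows. In the next densest windows, chosen by the same count, the ratio of coverage inside to outside KDM4B peaks was also below that of the other autosomes. That choice raises coverage outside KDM4B peaks, so these windows give no independent support. Coverage outside was 12.2% in the block and 0.61% on the other autosomes. It was 7.34, 5.86 and 5.7% in the windows on chromosomes 8, 4 and 11. On chromosome 8 from 123000001 to 125000000 there were 500 KO H3K9me3 and 77 KDM4B peaks, and coverage inside KDM4B peaks was 2.46 times that outside. On chromosome 4 from 139000001 to 141000000 there were 403 and 48 peaks and the ratio was 3.32, and on chromosome 11 from 117000001 to 119000000 there were 397 and 75 peaks and it was 3.63. KDM4B peaks overlapped the mark in 42.9% (31.6 to 54.6%), 37.5% (24.0 to 52.6%) and 40% (28.9 to 52.0%) of cases there. Of the KO peaks, 7.60% (5.43 to 10.3%), 4.22% (2.48 to 6.67%) and 9.07% (6.43 to 12.3%) overlapped KDM4B in these 3 windows, which had fewer KDM4B peaks than the block.

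Peaks of the WT H3K9me3 list lay at a single place in the block. The 4 WT peaks lay within 4.42 kb, at 80640738 to 80641063, 80641302 to 80641635, 80641712 to 80642043 and 80644951 to 80645153, with widths of 325, 333, 331 and 202 bp. All 4 overlapped KO H3K9me3, where the background over the whole WT list was 43.5%. The first 3 lay inside 1 KO peak, from 80640721 to 80642071, the second widest of the block, and the fourth inside the KO peak from 80644815 to 80645193. Seen from the KO list, 2 of 794 peaks overlapped WT H3K9me3, or 0.252% (0.0305 to 0.907%), with a background of 0.788%. The other 792 overlapped no peak of the WT list, which holds 943 peaks in the genome against 55306 in the KO list. With depth and threshold unknown, a missing WT peak does not show that the mark was absent.

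KDM4B peaks lay at both ends of the same 4.42 kb and within it. The first WT H3K9me3 peak overlapped the end of a KDM4B peak from 80639047 to 80640761 and the third overlapped the start of one from 80642010 to 80642529. The second was 375 bp from KDM4B, and the fourth ended at 80645153, the position where a KDM4B peak of 939 bp began. A further KDM4B peak, from 80644235 to 80644641, lay within the span and overlapped no WT H3K9me3 peak. So 2 of the 4 WT peaks overlapped KDM4B, against a background of 1.48%, and 2 of the 215 KDM4B peaks overlapped WT H3K9me3, against 0.0531%. If the deposited starts count from 1, the shared end position is an overlap and the counts become 3 of 4 and 3 of 215. Counts this small, from 1 place, do not describe the block as a whole. The first Mb of the block had 0 WT peaks, and 3 counts would make 3 per Mb.

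The first Mb had 92 KDM4B and 388 KO H3K9me3 peaks, and the second had 123 and 406. KDM4B peaks overlapped the mark in 57.6% of cases in the first and 56.1% in the second, and KO peaks overlapped KDM4B in 21.1 and 23.9%. Of the 8 KO peaks of 1 kb or more, 7 lay in the second Mb.

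Genes known from this region could be put in order but not placed in the block or under single peaks. The gene table used here is of build GRCm38.p6 and the peaks are in mm9. As background, this part of mouse chromosome 10 is known for a crowded run of short genes that matches the tip of the short arm of human chromosome 19. Which of these genes lies inside the block's edges, and how close they stand in mm9, was not determined, so the density of genes was not checked on the files. A list of 40 genes known from the region was looked up in that RefSeq table for their neighbours only. All 40 were found on chromosome 10. From the first of them, Bsg, to the last, Gna11, there are 110 protein-coding genes. The choice of the list sets both ends of this run, which is not the gene content of the block.

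In the table's order, Bsg, a membrane glycoprotein, Hcn2, a pacemaker channel, and Polrmt, the mitochondrial RNA polymerase, are the first 3 of this run. Prtn3 and Elane, proteases of neutrophil granules, stand at places 12 and 13, directly before Cfd, which encodes the fat cell product adipsin, and Med16, a Mediator subunit. Polr2e, a subunit shared by the RNA polymerases, and Gpx4, a peroxidase that protects membrane lipids, are at 25 and 26, and Stk11, the kinase LKB1, is at 28. Midn and Cirbp, the latter a cold-inducible RNA-binding protein, are neighbours at 31 and 32, and Rps15, a ribosomal protein, is at 39. Mbd3, a subunit of the NuRD complex, the respiratory chain gene Uqcr11, and Tcf3, the E-protein E2A, occupy places 47 to 49. Dot1l, the histone H3 lysine 79 methyltransferase, is at 63, and Amh, anti-Müllerian hormone, at 66. Lmnb2, a nuclear lamin, and Gadd45b, a stress-response gene, are at 74 and 75, followed by Gng7 and Diras1. Eef2, the translation elongation factor, and Dapk3, a kinase, are at 85 and 86, and the G protein genes Gna15 and Gna11 close the run at 109 and 110.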

How the data were processed

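ChIP-seq peaks were taken from the lists the authors deposited, 1 library per group. Chromatin was sheared to 200 to 500 bp, per the labels' protocols. Reads were aligned with Bowtie, and peaks called with MACS (KDM4B) or MACS2 (H3K9me3, H3), per the submitters' processing notes, which list mm9 and hg19. The 3 lists described here hold only chromosome, start and end. Positions are printed as deposited; whether starts count from 0 or 1 is not given, a difference of 1 bp. Versions, depth, thresholds and use of the spike-in of these lists are not stated in the sources at hand. Width is end minus start.

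The RefSeq gene table was of build GRCm38.p6: peaks reach past its last gene on 9 of 21 chromosomes. It served for gene names and order only. No sequence of mm9 was used.

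Peaks sharing 1 bp or more counted as overlapping. Intervals are 95%, exact binomial (Clopper-Pearson) for shares and exact Poisson for densities, with lengths between the first and last peak of each chromosome. Coverage by distance was read in bins of 10 bp. Overlap counts (Python 3.11.15, numpy 2.4.6, scipy 1.17.1) were tested on simulated data and equalled bedtools 2.31.1 in 30 of 30 comparisons. The named regions were the widest peaks, largest groups, longest runs and extreme windows of each kind, and every WT H3K9me3 peak. The members and lists were chosen with earlier results of these data known. The comparison by distance class and the denser windows on chromosomes 4, 8 and 11 were added after seeing the values. Alternatives were other overlap rules, merged peaks, moved edges, other window sizes and leaving out the smallest peaks.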

Additional observations from a re-analysis of the deposited data

How the results depend on the processing

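With 1 library per group and peaks without scores, none of the values has a replicate check, and depth limits all 3 lists by an unknown amount. Merging peaks within 1 kb lowered the counts in the block from 215 to 114 for KDM4B, from 794 to 421 for KO H3K9me3 and from 4 to 2 for WT H3K9me3, and the runs along the block from 327 to 209, since fewer peaks remain by construction. The share of KDM4B peaks overlapping KO H3K9me3, 56.7%, was 47.0% when the overlap had to reach 50% of the shorter peak, 80.9% when peaks within 1 kb counted and 70.2% with merged peaks. The share of KO peaks overlapping KDM4B, 22.5%, was 19.1% and 31.5% under the first 2 of these rules. The other alternatives left counts, runs, the median gap and the window coefficient within 1.5 times, and both shares within their intervals. The Pearson coefficient was 0.307 in windows of 20 kb and 0.454 in windows of 100 kb. Reading starts as counting from 1, an alternative chosen after seeing the data, gave the same shares of 56.7 and 22.5% and took the WT H3K9me3 peaks that overlap KDM4B from 2 to 3. The comparison of gene features was not run, for lack of an mm9 annotation. No paired analysis was possible because the labels carry no replicate numbers and each group has 1 library.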
